A study of Rattus norvegicus with 18 samples.

Results

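miR-129, miR-346 and miR-598 are miRNAs best known from the brain, and their entries were followed here through the gastrocnemius muscle of ageing rats. The entries were chosen by name, taking every row of the count table that is called miR-129, miR-129-1, miR-129-2, miR-346 or miR-598, whichever arm of the hairpin it stands for. This gave 6 of the 909 entries, which were rno-miR-129-5p, rno-miR-129-1-3p, rno-miR-129-2-3p, rno-miR-346, rno-miR-598-3p and rno-miR-598-5p. Of these, 5 reached the minimum of 10 counts in the libraries compared and were tested, and rno-miR-598-5p was too rare. The families were picked with earlier results of these libraries known, namely that rno-miR-129-1-3p and rno-miR-598-3p were called higher in old AL than in young AL and that rno-miR-129-5p, rno-miR-129-1-3p, rno-miR-346 and rno-miR-598-3p were called higher in old CR than in young AL. Their differences from young AL are therefore given as a description, without a p. Only the comparison between the old groups and measures within a group were tested. The earlier calls used the old libraries too, so p values between the old groups are not independent of how the families were picked.

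Small RNA was sequenced from 18 male Brown Norway rats, 1 library per rat. Young AL (replicates 1 to 6) stands for 6 rats aged 6 months with free access to food. Old AL (replicates 7 to 12) is 6 such rats aged 28 months, and old CR (replicates 13 to 18) is 6 rats of that age on caloric restriction, which had been given 55% of the usual intake since they were 2 months old. No young rats under restriction are among these libraries, so diet can be compared only at 28 months and age only under free feeding. Old CR against young AL differs in both. Library totals were 34940346 to 74881378 counts in young AL, 48964459 to 82959871 in old AL and 47142870 to 83110905 in old CR. Levels are given as CPM, counts scaled to one-million-count libraries after TMM scaling, whose factors ran from 0.639 to 2.14, both in old AL (replicates 11 and 7). The tissue label was borne out by the striated muscle miRNAs, 7 entries with a summed level of 70542 to 187671 CPM per library. In whole muscle a change in the number of cells of a type and a change in the RNA of each cell cannot be told apart.

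A miRNA is cut from a hairpin precursor as a duplex of a 5p and a 3p arm. One arm, or each in some molecules, is loaded into an Argonaute protein, where bases 2 to 8, the seed, pair with messenger RNAs that are then repressed. In mammals miR-129 is made from a pair of genes, Mir129-1 and Mir129-2, which give the same 5p arm, and miR-129-5p is known in neurons for repressing the potassium channel Kv1.1. miR-346 lies within Grid1, the gene of a glutamate receptor subunit, and in the RefSeq annotation of GRCr8 rat Mir346 overlapped Grid1, Mir598 overlapped the protein-coding gene Xkr6, Mir129-1 overlapped the long non-coding RNA gene LOC120102250, and Mir129-2 overlapped no other gene.

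The sequences show which entries can be told apart by their reads. RefSeq's table for GRCr8 held the mature sequences of 4 of the 6 entries, printed 5′ to 3′ with the seed in capitals. rno-miR-129-5p has the same letters at chr4:58589716-58589736 on the plus strand (Mir129-1) and at chr3:100657448-100657468 on the minus strand (Mir129-2). rno-miR-129-1-3p lies at chr4:58589759-58589777 on the plus strand, rno-miR-129-2-3p at chr3:100657405-100657426 on the minus strand and rno-miR-346 at chr16:10224315-10224337 on the plus strand.
rno-miR-129-5p: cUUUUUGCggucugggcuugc
rno-miR-129-1-3p: aAGCCCUUaccccaaaaag
rno-miR-129-2-3p: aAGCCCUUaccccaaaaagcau
rno-miR-346: uGUCUGCCugagugccugccucu

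Among the 693 mature miRNAs of that table, rno-miR-129-5p was the only one with the seed UUUUUGC and rno-miR-346 the only one with GUCUGCC, while AGCCCUU was shared by the 3p entries of miR-129 and by no other. The annotated rno-miR-129-1-3p, of 19 nt, is the beginning of rno-miR-129-2-3p, of 22 nt. Read on in its hairpin to the same 22 nt, the Mir129-1 arm differs from that of Mir129-2 by the substitution U20C, counted from 1 at the 5′ end with the base of Mir129-1 first and shown in capitals.
3p arm of Mir129-1: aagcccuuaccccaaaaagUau
3p arm of Mir129-2: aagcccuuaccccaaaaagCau

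The counts of these 3p entries were equal in 16 of 18 libraries. They differed in young AL replicate 1, with 2 counts for rno-miR-129-1-3p and 12 for rno-miR-129-2-3p, and in young AL replicate 2, with 1 and 3. These are the young AL libraries whose library numbers stand apart from the rest. The totals over all libraries were 352 and 364 counts. In the old groups they are therefore 1 measurement under 2 names, and neither can be ascribed to its gene. Counts and medians over the 5 tested entries below include both names, so the 5 are not 5 independent measurements. How the counting dealt with reads that match several miRNAs is not given in the sources used here.

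All tested entries were rare in this muscle. Over the 18 libraries rno-miR-598-3p averaged 3.14 CPM and ranked 235 of 763 known miRNAs, rno-miR-129-5p 1.81 CPM (rank 263), rno-miR-346 0.581 CPM (rank 361), and rno-miR-129-1-3p 0.298 CPM (rank 405). In young AL the order was rno-miR-598-3p, rno-miR-129-5p, rno-miR-346 and rno-miR-129-1-3p, and the ranges of neighbours overlapped only between the last pair. In old CR rno-miR-129-5p (3.74 ± 2.82 CPM) and rno-miR-598-3p (3.54 ± 0.403 CPM) did not differ beyond their spread. rno-miR-598-5p, the other arm of miR-598, had 1 count in old AL replicate 7, 1 in old CR replicate 17 and 0 in the remaining libraries, where the limit that 0 counts set is 3 counts in each library (counting error only).

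rno-miR-129-5p, the arm that carries most miR-129 reads, was at 0.375 CPM in the lowest, 0.572 in the median and 0.869 in the highest young AL library, on 15 to 44 counts. In old AL the lowest was 0.380, the median 1.01 and the highest 1.88 CPM (27 to 197 counts). Under CR these values were 1.25, 2.73 and 8.05 CPM (68 to 515 counts). All 6 old CR libraries were higher than any young AL library, and 3 of 6 old AL libraries were. Old CR replicates 17 (8.05 CPM) and 18 (6.12 CPM) stood above the other libraries of their group. The means of young AL, old AL and old CR were 0.608 ± 0.199, 1.08 ± 0.534 and 3.74 ± 2.82 CPM (SD, n = 6 each), and the mean of the remaining 4 old CR libraries was 2.06 CPM.

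For rno-miR-129-1-3p the young AL levels rest on 1 to 6 counts per library, with 0.0148 CPM in the lowest, 0.0334 in the median and 0.137 in the highest library. Old AL libraries held 8 to 45 counts, at 0.113, 0.259 and 0.430 CPM. Old CR libraries held 11 to 95 counts, at 0.185, 0.368 and 1.67 CPM. The highest young AL library was exceeded by 5 of 6 old AL libraries and by all 6 old CR libraries. The means were 0.0485 ± 0.0462, 0.263 ± 0.111 and 0.584 ± 0.564 CPM. rno-miR-129-2-3p had the same values in the old groups and 0.0843 ± 0.0797 CPM in young AL, where its highest library, replicate 1, reached 0.222 CPM, a level that 4 of 6 old AL and 4 of 6 old CR libraries exceeded.

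rno-miR-346 was at 0.0686, 0.0974 and 0.200 CPM in the lowest, median and highest young AL library (3 to 14 counts). In old AL it spread from 0.113 over a median of 0.359 to 1.24 CPM (5 to 77 counts), and in old CR from 0.214 over 1.15 to 2.03 CPM (18 to 132 counts). Old CR and young AL did not overlap, although the lowest old CR library, replicate 18, lay only just above the highest young one. This library was at the same time the second highest for rno-miR-129-5p. In old AL 4 of 6 libraries exceeded the highest young one, and replicate 9 reached the top level. The means were 0.114 ± 0.0506, 0.468 ± 0.409 and 1.16 ± 0.62 CPM.

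rno-miR-598-3p, the best counted member with 55 to 364 counts per library, was at 1.26, 1.76 and 2.45 CPM in the lowest, median and highest young AL library. The same values were 1.91, 4.24 and 5.64 CPM in old AL and 3.00, 3.55 and 4.05 CPM in old CR. Both old groups stood above young AL, except for old AL replicate 7, which fell within the young range. This is the library with the largest TMM factor, and it was the highest old AL library for rno-miR-129-5p. Scaled by library totals alone, old AL replicate 7 stood at 4.08 CPM, above the highest young AL library (2.580 CPM). Old AL replicate 11 (2.14 CPM) and, narrowly, old CR replicate 13 (2.576 CPM) then fell within the young range. The means were 1.78 ± 0.425, 4.08 ± 1.36 and 3.54 ± 0.403 CPM. Relative to its mean, the spread in old CR was the smallest of any tested entry in any group, with a coefficient of variation of 11.4%, against 75.5% for rno-miR-129-5p in the same libraries.

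**Figure D1:**
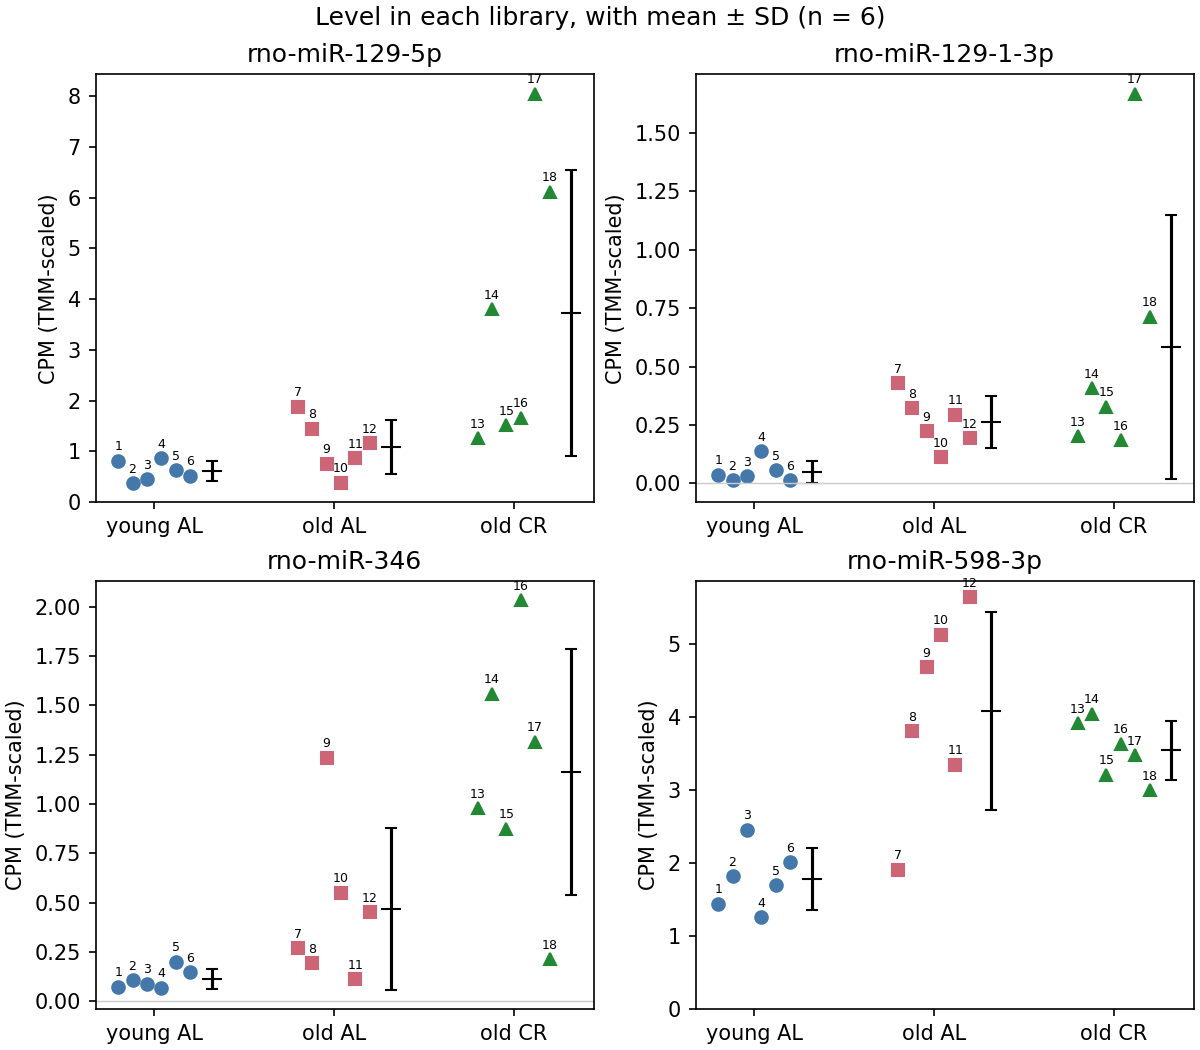
Level of rno-miR-129-5p, rno-miR-129-1-3p, rno-miR-346 and rno-miR-598-3p in CPM (linear axes) in each of 18 libraries, labelled by replicate, with mean and SD (n = 6) in black. rno-miR-598-3p stood at 3.00 to 4.05 CPM in old CR, whereas rno-miR-129-5p ran from 1.25 to 8.05 CPM there, with replicates 17 and 18 on top.

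In old AL against young AL, the first comparison by which the entries had been picked, edgeR's quasi-likelihood test called 2 of the 5 tested entries, rno-miR-129-1-3p and rno-miR-598-3p, both higher. Over all entries it called 24 of 732, or 3.28%, and 0.956% as higher. The log2 fold changes were 2.43 for rno-miR-129-1-3p (standard error 0.549), 1.60 for rno-miR-129-2-3p (0.590), 0.81 for rno-miR-129-5p (0.348), 2.02 for rno-miR-346 (0.567) and 1.21 for rno-miR-598-3p (0.273). All 5 were above 0, as were 56.6% of all entries, and their median was 1.60 against 0.06 over all entries. The 5 include both 3p entries of miR-129, whose counts differ only in young AL replicates 1 and 2. Without these 2 libraries both 3p entries had a log2 fold change of 2.14, and neither was called. None of the 5 was without overlap between the groups, and 0.82% of all entries were without overlap with old AL higher. With any 1 of the 12 libraries left out, 0 or 1 of the 5 was called, and with scaling by library totals alone 0. DESeq2 and some other settings called rno-miR-346 as well.

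In old CR against young AL, the other comparison behind the choice, all 5 were called higher and above 0 (55.8% of all entries were above 0), beside 9.32% of the 730 entries tested in either direction and 4.11% as higher. The 5 include both 3p entries of miR-129, whose old CR counts are the same. The log2 fold change was 3.56 for rno-miR-129-1-3p (standard error 0.718), 2.76 for rno-miR-129-2-3p (0.728), 2.61 for rno-miR-129-5p (0.494), 3.30 for rno-miR-346 (0.493) and 0.99 for rno-miR-598-3p (0.178), with a median of 2.76 against 0.08 over all entries. At TMM-scaled levels there was no overlap between groups in 4 of the 5, all but rno-miR-129-2-3p, and 2.74% of all entries were without overlap in this direction. Scaled by library totals alone, old CR replicate 13 lay below the highest young AL library for each of these 4 but rno-miR-346. The call of rno-miR-129-2-3p was lost when old CR replicate 17, old CR replicate 18 or any young AL replicate but the first was left out (log2 fold changes of 2.10 to 2.95). Without young AL replicates 1 and 2 together, where alone the 3p entries differ, both had a log2 fold change of 3.35 and were called. rno-miR-129-5p was 6.09-fold higher, and its log2 fold change was 1.76 without old CR replicates 17 and 18, a pair chosen after their levels were seen. Without this pair the value was 2.52 for rno-miR-129-1-3p, 1.72 for rno-miR-129-2-3p, which was then not called, 3.54 for rno-miR-346 and 1.06 for rno-miR-598-3p.

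Both comparisons share the young AL libraries, so the values are not independent of each other. Side by side, rno-miR-598-3p stood at 1.21 in old AL and 0.99 in old CR on the log2 scale, while the other tested entries had the larger value in old CR. Whether the old groups differed was tested directly between them.

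In old CR against old AL, which asks what restriction changed at 28 months, edgeR called 0 of the 5 entries (thresholds, adjusted p 0.05 and 1.5-fold) and 0.272% of all 736 entries tested. The log2 fold change was above 0 in 4 of the 5, all but rno-miR-598-3p, as in 50.7% of all entries. Among these, the 3p entries of miR-129 are 1 measurement under 2 names. Of the 5, 2 had an unadjusted p under 0.05, and DESeq2 called 1. The share of all entries with such an unadjusted p is not given, and DESeq2's calls over all entries are in the last paragraph. rno-miR-129-5p had the largest difference, 3.47-fold higher in old CR, or 1.79 on the log2 scale (standard error 0.533, 95% interval 0.63 to 2.95, adjusted p = 0.392 from edgeR). DESeq2 called it (log2 fold change 1.82, adjusted p = 0.0189), and over all alternatives the adjusted p ran from 0.0189 to 0.649 (edgeR and DESeq2). Here 3 of 6 old CR libraries lay above every old AL library, and without old CR replicates 17 and 18 the log2 fold change was 0.94. Relative to young AL, rno-miR-129-5p and rno-miR-346 were already known to be called only under CR. That choice leans toward higher levels in old CR than in old AL, so their p values here are not free of it.

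The remaining entries did not pass either tool in this comparison. rno-miR-346 had a log2 fold change of 1.32 (standard error 0.601, 95% interval 0.0089 to 2.63, adjusted p = 0.414 from edgeR), with 3 of 6 old CR libraries above all old AL libraries. The 3p entries of miR-129 had 1.15 (standard error 0.550, interval -0.05 to 2.35, adjusted p = 0.414 from edgeR), which was 0.10 without old CR replicates 17 and 18. rno-miR-598-3p differed by -0.20 on the log2 scale (standard error 0.237, edgeR adjusted p = 0.812), with an interval of -0.71 to 0.32, whose upper end is 1.25-fold. These intervals belong to each entry alone and are not adjusted for the number of entries.

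**Figure D2:**
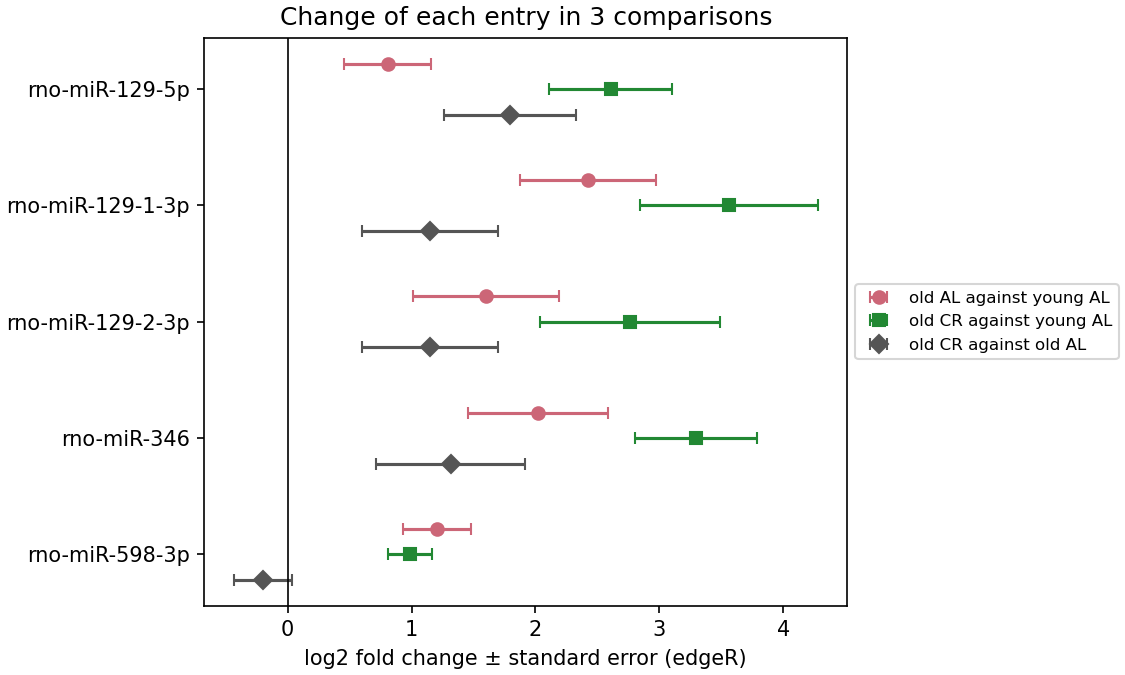
Log2 fold change with standard error from edgeR for the 5 tested entries (rows) in 3 comparisons, old AL against young AL (circles), old CR against young AL (squares) and old CR against old AL (diamonds). All values against young AL lie above 0, and between the old groups rno-miR-129-5p is at 1.79 and rno-miR-598-3p at -0.20.

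The balance of the miR-129 arms can be read within a library, free of scaling, as the log2 ratio of rno-miR-129-5p to rno-miR-129-1-3p counts with 0.5 added to each. The 5p arm exceeded the 3p arm in every library. In old AL the log2 ratio was 1.51 in the lowest, 1.91 in the median and 2.54 in the highest library, with a geometric mean of 3.87 reads of 5p per read of 3p. In old CR it was 2.17, 2.83 and 3.19, with a geometric mean of 6.66. The summed counts were 502 and 119 in old AL and 1438 and 218 in old CR.

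The mean log2 ratio was 0.78 higher in old CR than in old AL (2.74 ± 0.456 against 1.95 ± 0.380, SD, n = 6 each, standard error of the difference 0.243, p = 0.0108 in a two-sided exact permutation test over all arrangements of the libraries, which can give no p below 0.0022). In 4 of 6 old CR libraries the ratio exceeded that of any old AL library. With any 1 library left out the difference was 0.69 to 0.90 (exact permutation p of 0.0043 to 0.022). These p values are not independent of how the families were picked. Relative to young AL, rno-miR-129-1-3p was already known to pass the thresholds in both old groups, and rno-miR-129-5p only under CR. That earlier pattern already leans toward a lower ratio in old AL. In young AL the log2 ratio was 2.57 to 4.56 against rno-miR-129-1-3p and 1.83 to 4.56 against rno-miR-129-2-3p, on 15 and 27 counts of the 3p arm in the whole group, so that its value depends on which 3p entry is used. In young AL the mean was 3.67 with the former and 3.08 with the latter.

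**Figure D3:**
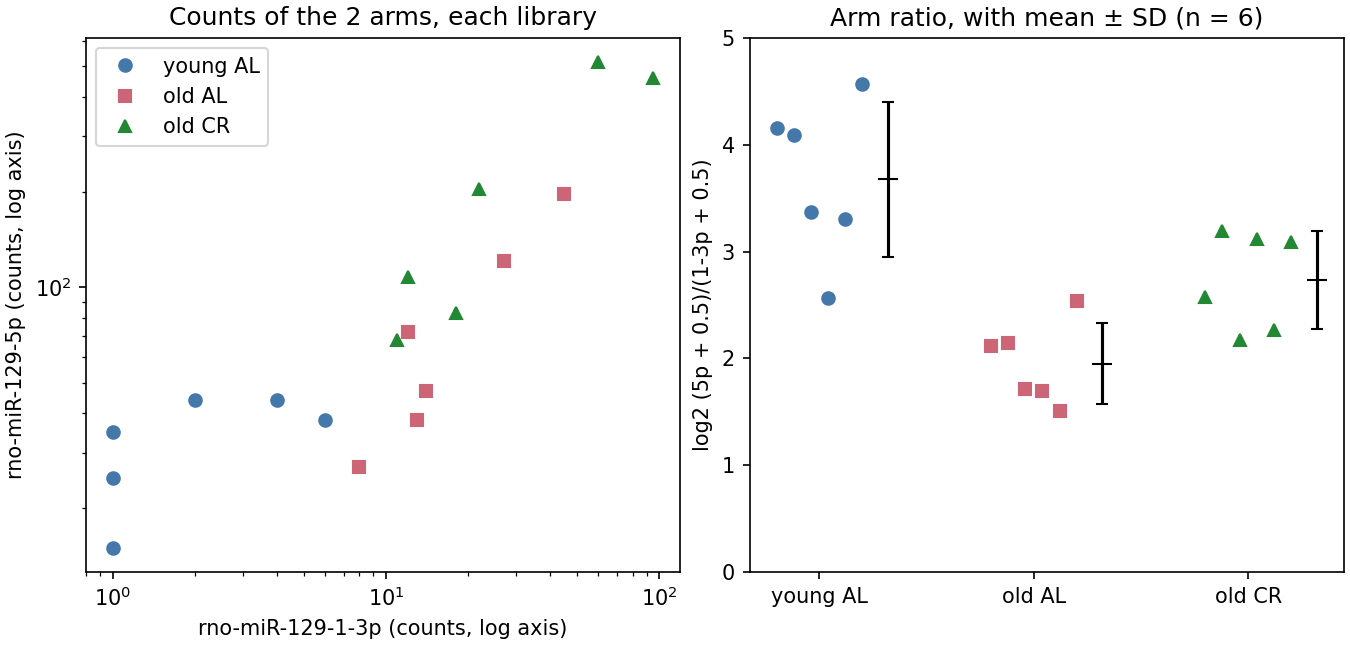
Left, counts of rno-miR-129-5p against rno-miR-129-1-3p in each library (both axes logarithmic), and right, the log2 ratio of the 2 arms per library with mean and SD (n = 6 per group). At similar 3p counts the old CR libraries tend to hold more 5p counts than old AL libraries, with mean log2 ratios of 2.74 and 1.95.

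Members differed in how they moved from rat to rat within a group. In each of the 3 groups rno-miR-129-5p and rno-miR-129-1-3p had a Pearson r above 0 (0.77 to 0.92 on log2 CPM, n = 6 each). For rno-miR-346 and rno-miR-598-3p r was 0.39 to 0.74. Between these pairs every Pearson r was below 0 with all 6 libraries, while Spearman's rho was 0.03 for rno-miR-129-5p with rno-miR-346 in old CR and below 0 otherwise. Pearson r was -0.80 to -0.31 for rno-miR-129-5p with rno-miR-598-3p and -0.82 to -0.39 for rno-miR-129-1-3p with rno-miR-598-3p. With rno-miR-346 it was -0.42 to -0.33 for rno-miR-129-5p and -0.54 to -0.29 for rno-miR-129-1-3p.

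No single correlation passed the correction, as 0 of 30 relations had an adjusted p of at most 0.05 by exact permutation over the 720 pairings. Unadjusted, 6 of 30 did by Pearson and 2 of 30 by Spearman. The strongest relation was that of the miR-129 arms in old CR (r = 0.92, exact permutation p = 0.0056, adjusted p = 0.167, Spearman rho 0.83, exact permutation p = 0.058, adjusted p = 0.25), which was r = 0.73 without the 2 libraries farthest from the median of rno-miR-129-5p. Without the 2 libraries farthest on the x axis, 8 of the 30 relations changed sign, among them rno-miR-129-5p with rno-miR-346 and with rno-miR-598-3p in old CR (r of 0.47 and 0.49). All members of a library share its scaling factor.

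A list of 18 miRNAs known from neurons, without the members, shows how far these entries go with nerve miRNAs. Of its 16 entries tested, edgeR called 1 higher in old AL than in young AL (rno-miR-212-3p) and 6 higher in old CR than in young AL (the entries of miR-9a, miR-9b and miR-124), and none lower. Their median log2 fold changes were 0.41 and 1.67, against 0.06 and 0.08 over all entries. Over all entries 0.956% were called higher in old AL and 4.11% in old CR. rno-miR-9a-5p and rno-miR-9b-3p had nearly the same mean level (58.0 and 56.4 CPM in old CR), so the 6 may not all be separate measurements. Above 0 were 11 of 16 in old AL against young AL and 13 of 16 in old CR against young AL (56.6% and 55.8% of all entries). In old CR against old AL 15 of 16 were (50.7% of all entries). These 16 may likewise not all be separate measurements. In old CR against old AL their median was 1.26 against 0.01 over all entries. There edgeR called 0 of them, 9 had an unadjusted p under 0.05, and DESeq2 called 3. The 9 cannot be set against a share of all entries, as none is given, and DESeq2's calls over all entries are in the last paragraph. The level of rno-miR-9a-5p, a miRNA of neural progenitors and neurons, was 12.0 ± 4.37 CPM in young AL, against 20.4 ± 8.88 CPM in old AL, and it was 58.0 ± 45.6 CPM in old CR (SD, n = 6 each). rno-miR-128-3p, the most abundant entry of the list and one that muscle also expresses, was at 711 ± 167, 484 ± 134 and 518 ± 153 CPM and was not called.

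Because rno-miR-128-3p makes up most of the summed level of the list, libraries were compared by the mean log2 CPM of the 16 entries. It ran from -1.13 to -0.11 in young AL and from -0.91 to 0.30 in old AL, against -0.28 to 1.91 in old CR, where replicates 17 (1.91) and 18 (1.17) were again the highest. rno-miR-129-5p had a Pearson r with this mean of 0.24, 0.79 and 0.88 (young AL, old AL, old CR), and rno-miR-129-1-3p one of 0.72 to 0.83. For rno-miR-346 (-0.85 to -0.07) and rno-miR-598-3p (-0.61 to -0.15) r was below 0 in all 3 groups. These 12 relations are among the 30 above and none passed the correction, and without the 2 farthest libraries r changed sign for rno-miR-129-5p in young AL (-0.55), for rno-miR-346 in old CR (0.60) and for rno-miR-598-3p in young AL and old CR (0.14 and 0.03). The neural label of the 3 families rests on what is known of the brain, and in this muscle the Pearson r of rno-miR-346 and rno-miR-598-3p with the neuronal list was below 0 in each group when all libraries were used, although Spearman's rho was 0.14 for rno-miR-346 in old CR.

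**Figure D4:**
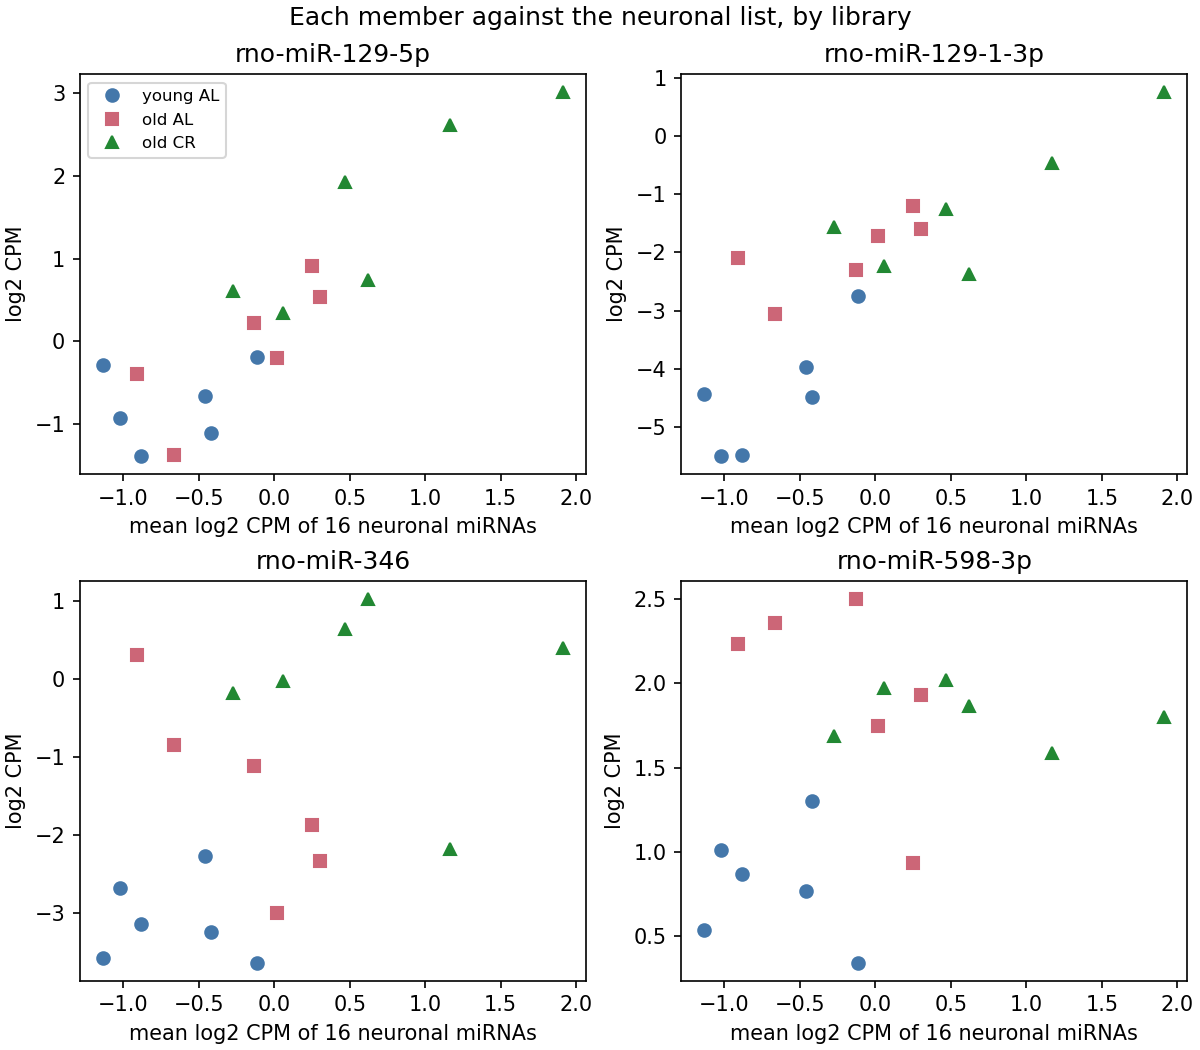
Log2 CPM of each of 4 members against the mean log2 CPM of 16 neuronal miRNAs, 1 point per library (circles young AL, squares old AL, triangles old CR). For rno-miR-129-5p the old CR libraries climb with the list (r = 0.88), whereas those of rno-miR-598-3p lie flat (r = -0.23).

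The known miRNAs most like each member over all 18 libraries were sought by Spearman's rho of log2 CPM among 472 known miRNAs counted in every library, as a description in which the 3 groups are pooled. For rno-miR-129-5p they were rno-miR-9a-3p (rho 0.88), rno-miR-219a-2-3p (0.87) and rno-miR-219b (0.86). For rno-miR-129-1-3p they were rno-miR-219a-2-3p (0.89), rno-miR-219b (0.88) and rno-miR-212-3p (0.83). rno-miR-219a-2-3p and rno-miR-219b had nearly the same mean level (3.18 and 2.90 CPM in old CR), so they may not be separate measurements. miR-219 is known from oligodendrocytes, the myelinating cells of the central nervous system. rno-miR-219a-2-3p averaged 0.473 ± 0.250, 0.946 ± 0.359 and 3.18 ± 3.98 CPM (young AL, old AL, old CR). Its old CR median was 1.55 CPM and its highest library 11.1 CPM. The other miR-219 entries of the glial list did not follow it. In old CR against old AL the log2 fold change was 1.75 for rno-miR-219a-2-3p, against -0.40 for rno-miR-219a-1-3p and -0.52 for rno-miR-219a-5p, and none was called by edgeR.

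The likest miRNAs of the other members were of other kinds. rno-miR-346 went with rno-miR-31a-5p (0.87), rno-miR-139-3p (0.77) and rno-miR-122b (0.76), and rno-miR-598-3p with rno-miR-93-5p (0.77), rno-miR-17-5p (0.76) and rno-miR-122-5p (0.74). The last is a miRNA of hepatocytes. Among the members themselves rho was 0.87 between rno-miR-129-5p and rno-miR-129-1-3p, 0.71 between rno-miR-346 and rno-miR-598-3p, and 0.20 between rno-miR-129-5p and rno-miR-598-3p.

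Markers of further cell types differed between the groups as well, and their part in the members' levels was not tested. Of 5 glial entries edgeR called 1 higher in old CR than in young AL (rno-miR-219a-2-3p), and their summed level was 8.18 to 13.5 CPM in young AL, while old AL had 6.77 to 9.91 CPM, against 9.04 to 22.7 CPM in old CR, highest in replicate 17. Of 3 neuroendocrine entries 1 was called higher in old AL (rno-miR-375-3p) and 2 in old CR (rno-miR-375-3p and rno-miR-7b). Both liver entries, of miR-122, were called higher in old CR only, with sums of 0.570 to 38.7 CPM in young AL, against 49.2 to 777 CPM in old AL, while old CR had 102 to 187 CPM, and DESeq2 called both in old AL too. The 7 epithelial entries were above 0 in all 3 comparisons with 0 calls by edgeR (3 to 6 at an unadjusted p under 0.05, and 2 called by DESeq2 in old CR against young AL), and old CR replicate 14 held 1287 CPM of them. No entry of the leukocyte, erythroid and striated muscle lists was called by edgeR, with 0 to 2 of each at an unadjusted p under 0.05 and 1 DESeq2 call among erythroid entries in old AL. The leukocyte sum reached 604 CPM in old AL replicate 8, against at most 171 CPM in young AL. No entry of the glial, neuroendocrine, liver, epithelial, leukocyte, erythroid or striated muscle lists was at 0 in all libraries of a group, and of the neuronal list only rno-miR-153-5p was, in young AL.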

How the data were processed

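Total RNA of gastrocnemius muscle was sequenced by the authors as small RNA libraries, 1 per rat. Per the labels and methods, reads were trimmed with Cutadapt (1.2.1) and Sickle, reads under 12 nt were discarded, and known and predicted miRNAs were obtained with miRDeep2. The submitters' processing notes name Bowtie2 (2.4.0) and Rnor_6.0. The authors deposited raw, unnormalized counts of 909 entries, 763 known miRNAs and 146 predicted ones, and 0 columns were left unused. For ambiguous reads and the miRBase release the procedure is not given in the sources used here.

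Counts were scaled with TMM and compared pairwise with edgeR 4.0.16 (R 4.3.3), a robust quasi-likelihood test on entries with at least 10 counts in the libraries compared, with Benjamini-Hochberg adjustment over all entries. An entry was called with adjusted p up to 0.05 and 1.5-fold or more, the thresholds of the study. The standard error is the log2 fold change over the root of F. DESeq2 1.42.0, the tool of the study, was an alternative. Arm ratios and correlations were tested by exact permutation (scipy 1.17.1), two-sided, with 0.5 added to counts. The fits were tested on simulated data. In all 45 pairs of replicates the counts differed beyond sampling noise (chi-square over its degrees of freedom, 1214 or more).

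The members and lists were chosen with earlier results of these data known. Named are all rows of the 3 families, called or abundant entries of the marker lists, and the 3 miRNAs most like each member by rho. Names of called list entries were chosen after their values were seen. Mature sequences are from RefSeq (GRCr8), whose coordinates are not those of the counting. Alternatives were other scaling factors, DESeq2, other filters, a single fit, no robust estimation, known miRNAs only, the adjusted p alone and libraries left out.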

Additional observations from a re-analysis of the deposited data

Results flagged for a closer look

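In old CR replicate 17 the 3p entries of miR-129 stood apart from the other 5 libraries of their group, with 1.67 CPM for both rno-miR-129-1-3p and rno-miR-129-2-3p. As these entries have the same counts there, this is 1 observation. In young AL replicate 4 rno-miR-129-1-3p stood above its group at 0.137 CPM, which rests on 6 counts. These are 3 of 18 sets of 6 libraries examined, and chance marks about 1 in 20.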

How the results depend on the processing

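No paired analysis was possible because the replicate numbers 1 to 18 in the labels are not shared between groups. In old AL against young AL 2 members were called, against 0 with library totals alone, 0 without young AL replicates 1 and 2 together (whose library numbers stand apart), and 0 to 1 with any 1 library left out, where the cause was not tested. In old CR against young AL 5 were called, 3 with filterByExpr, under which only 3 members were tested, and 4 to 5 with 1 library left out. In old CR against old AL 0 were called, 1 with DESeq2 and 0 with any 1 library left out. No member with a test changed direction under any alternative. The arm ratio kept its direction under all 16 alternatives, and its side of the threshold in those with a test (0.69 to 0.90 with 1 library left out). The ratio of summed counts has no test. The alternative with rno-miR-129-2-3p as the 3p entry could not differ, because both 3p entries have the same counts in the old groups. Of the correlations, 0 of 30 passed under each of 3 scalings. Over all entries, calls in old AL against young AL were 24, with 84 from DESeq2, 53 with known miRNAs only, 38 in a single fit, 37 with filterByExpr, 0 with library totals and 9 to 20 with 1 library left out. In old CR against young AL they were 68, with 109 from DESeq2, 39 without old CR replicates 17 and 18 and 45 to 67 with 1 left out. Between the old groups they were 2, with 19 from DESeq2. The depth limits rno-miR-129-1-3p and rno-miR-346 in young AL most, at 1 to 6 and 3 to 14 counts per library.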
